A study of Mus musculus with 13 samples.

Results

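Regrowing mouse liver at 72 h after partial hepatectomy was compared with regrowing liver at 48 h, by in situ counts of single transcripts from a panel of 100 genes. The 72 h group held 2 sections and the 48 h group 2 sections, 4 of the 13 sections of the series and 35405 of its 131221 cells, taken by the time on their labels. All sections came from male C57BL/6 mice with a labelled age of 2 months, on normal chow, and the labels name no transgene or drug. Both groups had the same operation, which removed most of the liver, and differed in the time allowed for regrowth. The tissue was frozen regrown lobe, and the assay was Molecular Cartography of Resolve Biosciences, which reads a chosen gene panel by repeated fluorescent labelling of the same section. No label says whether the sections of a time came from separate animals, and the spread behind the p-values may be technical.

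After partial hepatectomy the remaining hepatocytes of the mouse enter the cell cycle, with cyclin D marking exit from rest and cyclin E the approach to DNA synthesis, and the liver regrows while it goes on making bile acids, glucose and plasma proteins. Hepatocytes differ along the lobule, from those around the portal vein, which run the urea cycle and make glucose, to those around the central vein, which carry much of the cytochrome P450 and glutamine synthetase. Wnt signals from central vein endothelium maintain the central programme.

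The sections at 72 h held 4794 and 11345 cells with 2456278 and 5057675 counts, against 9676 and 9590 cells with 3224645 and 3498479 counts at 48 h. Mean counts per cell were 512 and 446 at 72 h and 333 and 365 at 48 h. Without Cyp2e1 they were 389 and 360 at 72 h, against 304 and 336 at 48 h, so a part of the gap in depth was carried by that gene. Transcripts in cells were 68.8% and 68.9% of all listed transcripts at 72 h and 70.4% and 63.1% at 48 h. Section 1 of 72 h and both 48 h sections lay on slide 1 and section 2 of 72 h on slide 2. The log2 difference, as a root mean square over 99 genes, was 0.54 between the 72 h sections, 0.66 between the 48 h sections and 0.76 between the means of the times. Counts were scaled by TMM, which sets sections level on the bulk of their genes, and are given as counts per 1e6 (CPM). Against that scaling, total counts moved the median gene by -0.25 in log2 and cell number moved it by 0.16. In a sum over a section, fewer cells of a type and less RNA per cell cannot be told apart.

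The cytochrome P450 genes Cyp8b1 and Cyp2e1 were higher at 72 h, as were 4 Wnt ligand and receptor genes and Mogat1, and the glutathione transferase genes Gstm3 and Gstm2 were lower. By edgeR's quasi-likelihood test with Benjamini-Hochberg adjustment, 7 of 99 genes were higher (7.07%) and 2 were lower (2.02%) at a threshold of 0.05. The higher genes were Cyp8b1, Wnt10b, Wnt16, Fzd6, Cyp2e1, Mogat1 and Wnt10a, and the lower genes were Gstm3 and Gstm2. In 25 genes (25.3%) both 72 h sections lay above both 48 h sections, and in 26 (26.3%) both lay below. The test thus called a small part of the genes whose groups did not overlap. With the cell number of each section as its size, the same 7 genes were higher and 0 were lower. With the slide as a block the calls of Cyp8b1, Cyp2e1, Wnt16, Wnt10b, Gstm3 and Gstm2 held. On slide 1 alone, with 1 section of 72 h and 2 of 48 h, only 48 h had more than 1 library. A lost call on that slide therefore cannot be read as an effect of the slide, and the log2 fold changes there are given with each gene.

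**Figure D1:**
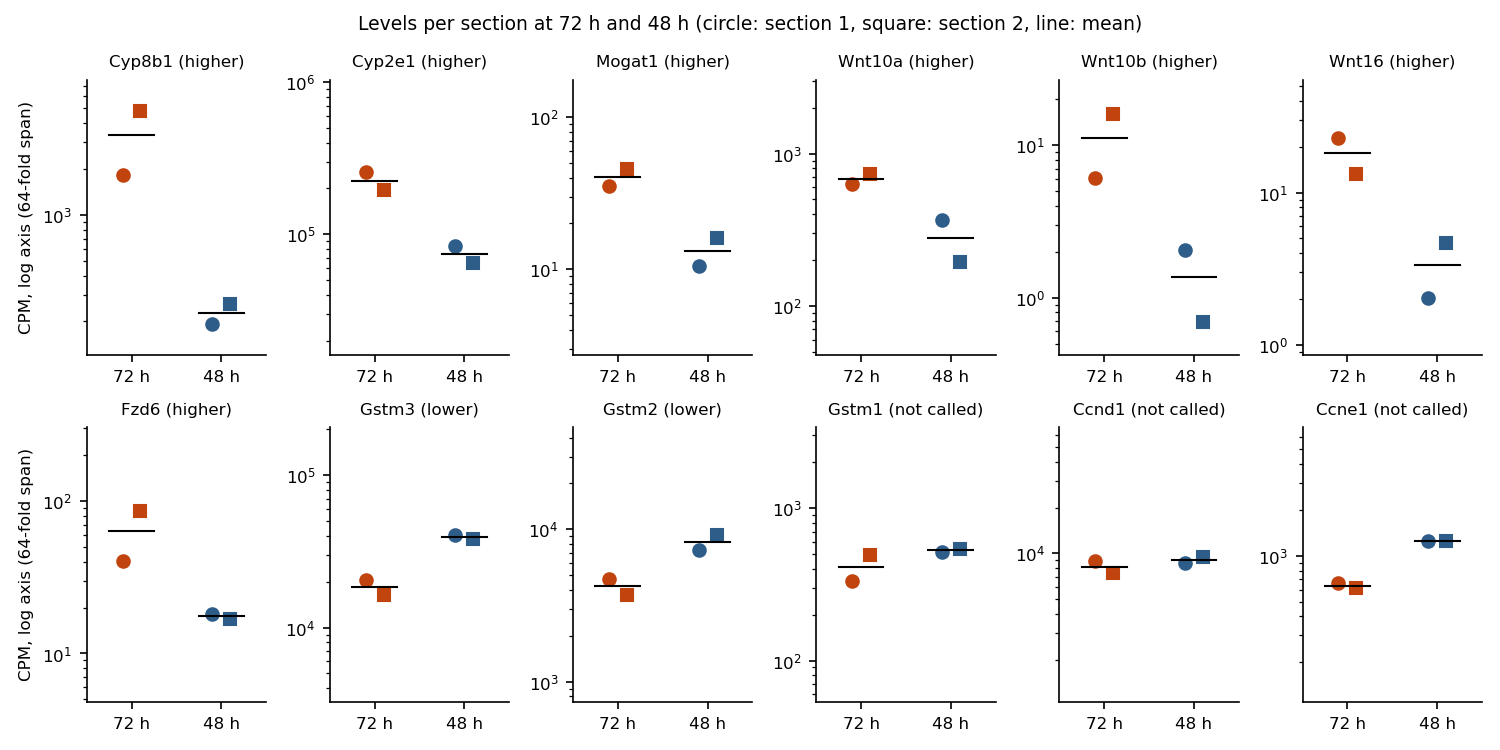
Scaled CPM on a log axis that spans 64-fold in every panel, for 12 genes, with 72 h left of 48 h, a circle for section 1, a square for section 2 and a line at the mean of 2 sections. In the 9 genes marked higher or lower, and in Gstm1 and Ccne1, the 72 h sections do not overlap the 48 h sections, whereas those of Ccnd1 do.

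Cyp8b1, the sterol 12-alpha-hydroxylase that steers bile acid synthesis toward cholic acid, showed the largest rise of the genes tested. It stood at 1836 and 4814 CPM in the 72 h sections, against 192 and 261 CPM in the 48 h sections. Both 72 h sections were far above both 48 h sections, and they differed from each other more than the 48 h sections did. The log2 fold change was 3.88 ± 0.42 (SE, n = 2 each), a 14.7-fold rise, with an adjusted p of 2.35e-05 in edgeR. With the slide as a block it was 3.56, on slide 1 alone it was 2.99, and it was called in each of 29 alternatives, at up to 4.55. Per cell, Cyp8b1 averaged 0.884 and 2.13 counts at 72 h, against 0.0679 and 0.117 at 48 h.

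The other bile acid genes of the panel did not pass. Cyp7a1, the rate-limiting enzyme of the classical route, stood at 1954 and 1233 CPM at 72 h, against 307 and 2325 CPM at 48 h. Its 48 h sections lay on either side of the 72 h sections, and the log2 fold change was 0.28 ± 1.45 (adjusted p 0.922 in edgeR). Cyp27a1, which opens the alternative route, had a log2 fold change of -0.05 ± 0.28, and Csad, which makes the taurine precursor used to conjugate bile acids, one of -0.24 ± 0.55. Of the 6 bile acid and drug metabolism genes, Cyp8b1 and Cyp2e1 rose, against 7.07% of all genes, and 4 did not pass, with a median of 0.11 against -0.03 over all 99 genes.

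Cyp2e1, which oxidises ethanol, acetone and small drugs in central hepatocytes, took up 24.1% and 19.3% of all counts at 72 h, against 8.87% and 7.96% at 48 h. Scaled, it stood at 256043 and 194356 CPM at 72 h, against 83498 and 64691 CPM at 48 h. Both 72 h sections were above both 48 h sections, with a log2 fold change of 1.60 ± 0.25 (adjusted p 0.000135 in edgeR), a 3.04-fold rise. Without section 1 of 72 h it was 1.48 with an adjusted p of 0.0581 in edgeR, on slide 1 alone it was 1.74 with 0.244, and with the 14 d sections summed to 1 library it was 1.61 with 0.0809. With the slide as a block the call held at 1.69. Cyp1a2, a neighbour of Cyp2e1 on the central side that metabolises caffeine and aromatic amines, went the other way without passing. It stood at 3749 and 4041 CPM at 72 h, against 7577 and 6588 CPM at 48 h, a log2 fold change of -0.86 ± 0.28 (adjusted p 0.0545 in edgeR). Its groups did not overlap, and it was called lower in 5 of 29 alternatives, among them DESeq2 at -0.87. It was not called with the slide as a block (-0.68, adjusted p 0.194 in edgeR), on slide 1 alone (-0.96, 0.244) or relative to cell number (-0.65, 0.458).

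Gstm3 and Gstm2, glutathione transferases of the mu class that couple glutathione to reactive compounds, fell. Gstm3 stood at 20674 and 16367 CPM at 72 h, against 40719 and 38217 CPM at 48 h. Gstm2 stood at 4713 and 3722 CPM at 72 h, against 7326 and 9190 CPM at 48 h. In both genes each 72 h section was below each 48 h section. Gstm3 fell by 1.09 ± 0.24 in log2 (SE, n = 2 each, adjusted p 0.00668 in edgeR) and Gstm2 fell by 0.97 ± 0.26 (0.021). On slide 1 alone they stood at -0.98 and -0.84 (adjusted p 0.244 and 0.247 in edgeR). The third member, Gstm1, stood at 332 and 495 CPM at 72 h, against 517 and 543 CPM at 48 h, with a log2 fold change of -0.36 ± 0.42 that did not pass. How the probes tell these similar transcripts apart is not stated in the labels. Relative to cell number Gstm3 stood at -0.88 (adjusted p 0.19 in edgeR) and Gstm2 at -0.78 (0.336), and neither call held. Leaving out section 2 of 72 h gave -0.93 and -0.81 (adjusted p 0.192 for both in edgeR). Both calls also ended when section 1 of 72 h was left out (0.0581 for Gstm3 and 0.0515 for Gstm2), or section 1 of 48 h (0.0905 and 0.059). With the 14 d sections summed to 1 library the adjusted p was 0.0988 for Gstm3 and 0.175 for Gstm2, and without them that of Gstm2 was 0.0524. With the section number as a block Gstm3 kept its call and Gstm2 did not (-0.96, 0.0891), nor did Gstm2 with the numbers crossed (-0.97, 0.0535).

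The promoter windows of these 4 genes are shown because they belong to the most abundant genes that moved in each direction. They run from 250 bases before to 50 after the start of the gene in RefSeq, on build GRCm38.p6, 5′ to 3′ on the strand of the gene, and all 4 were found by symbol. Capitals mark matches on either strand to the core of the antioxidant response element (TGACNNNGC), of TCF/LEF sites (CTTTGAT), of HNF4A sites (CAAAGTCCA) and of the TATA box (TATAAA), and no matches overlapped.
Cyp8b1 (chr9:121916256-121916555, minus strand): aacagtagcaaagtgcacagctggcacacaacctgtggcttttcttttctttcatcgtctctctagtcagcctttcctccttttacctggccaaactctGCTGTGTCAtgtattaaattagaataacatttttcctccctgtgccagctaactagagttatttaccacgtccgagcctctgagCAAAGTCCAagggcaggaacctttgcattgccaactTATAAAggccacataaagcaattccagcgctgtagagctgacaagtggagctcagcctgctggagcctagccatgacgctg
Cyp2e1 (chr7:140763569-140763868, plus strand): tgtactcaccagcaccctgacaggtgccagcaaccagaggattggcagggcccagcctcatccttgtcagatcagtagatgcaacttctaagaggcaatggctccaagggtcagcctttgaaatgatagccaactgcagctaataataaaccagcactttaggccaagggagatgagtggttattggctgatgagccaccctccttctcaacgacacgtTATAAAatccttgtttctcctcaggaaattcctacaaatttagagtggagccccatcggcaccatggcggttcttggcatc
Gstm3 (chr3:107969125-107969424, minus strand): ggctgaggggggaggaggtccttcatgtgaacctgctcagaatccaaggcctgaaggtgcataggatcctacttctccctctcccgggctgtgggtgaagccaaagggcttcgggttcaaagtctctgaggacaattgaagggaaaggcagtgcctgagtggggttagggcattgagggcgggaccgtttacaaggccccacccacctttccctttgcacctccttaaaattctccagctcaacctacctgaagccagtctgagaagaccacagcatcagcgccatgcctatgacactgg
Gstm2 (chr3:107986371-107986670, minus strand): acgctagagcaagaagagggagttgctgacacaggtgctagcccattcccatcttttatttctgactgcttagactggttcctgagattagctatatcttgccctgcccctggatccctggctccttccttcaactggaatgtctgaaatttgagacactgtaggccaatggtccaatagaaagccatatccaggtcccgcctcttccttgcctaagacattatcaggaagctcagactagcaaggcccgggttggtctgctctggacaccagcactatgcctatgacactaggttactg
The Cyp8b1 window held 1 antioxidant response element core, 1 HNF4A core and 1 TATA box core, and the Cyp2e1 window 1 TATA box core. The windows of Gstm3 and Gstm2 held none of the 4 motifs. Of 32851 windows of the same length in RefSeq, 12.4% held the antioxidant response element core, 3.73% the TCF/LEF core, 0.475% the HNF4A core and 13.6% the TATA box core. A match describes letters, not a bound site.

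Cell by cell, a larger share of cells carried Cyp8b1 in both 72 h sections. After every cell was thinned to 200 transcripts, 23.6% and 50.7% of cells at 72 h had at least 1 Cyp8b1 transcript, against 3.85% and 5.52% at 48 h. Unthinned, the shares were 40.1% and 65.3% at 72 h, against 6.01% and 9.46% at 48 h. Thinning left out 424 and 1528 cells at 72 h and 1813 and 1544 cells at 48 h that held fewer transcripts. For Cyp2e1 the thinned shares were 61.9% and 61.4% at 72 h, against 46.1% and 60.9% at 48 h, so that section 2 of 48 h nearly reached the 72 h sections. Cells in which Cyp2e1 made up over 30% of the transcripts were 35.6% and 28.4% at 72 h, against 10.7% and 6.77% at 48 h. Gstm3 had a transcript in 85.7% and 82.5% of thinned cells at 72 h, against 84.8% and 95.1% at 48 h, and the groups overlapped. These shares were not tested, and an exact permutation test of 2 sections against 2 cannot give a two-sided p below 1 in 3.

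**Figure D2:**
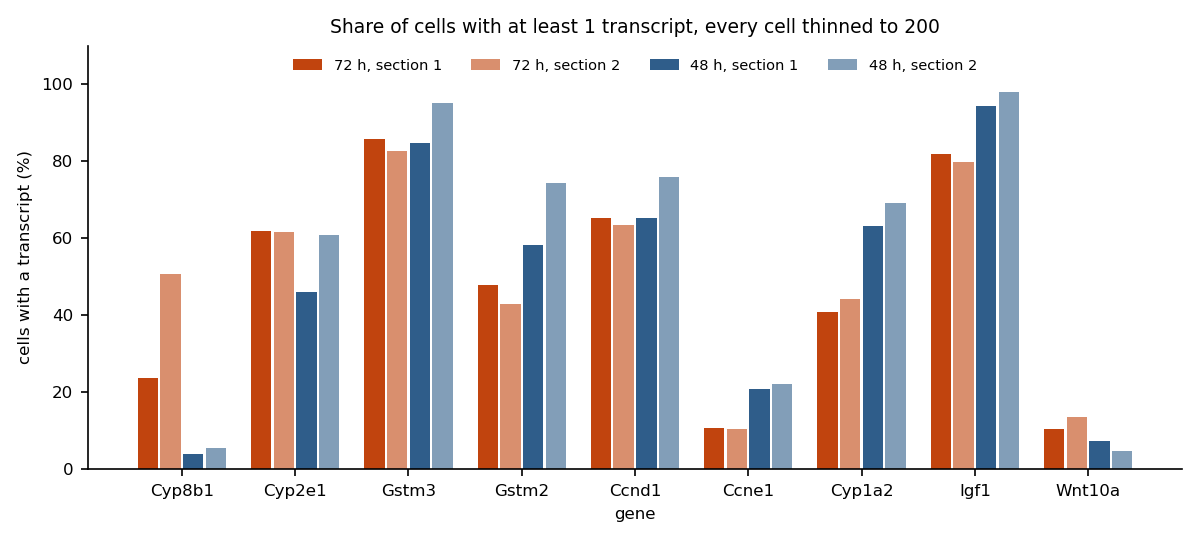
Percent of cells with at least 1 transcript of each of 9 genes after every cell was thinned to 200 transcripts, with bars starting at 0, 72 h sections left of 48 h sections and a paler shade for section 2. Cyp8b1 reaches 23.6% and 50.7% at 72 h, against 3.85% and 5.52% at 48 h, and Ccne1 10.7% and 10.5% at 72 h, against 20.8% and 22.0% at 48 h.

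Along the lobule, Cyp2e1 had more transcripts per tile at 72 h in the middle as well as in the centre, and the central excess of Gstm3 was smaller. The levels per part are descriptions of 2 sections each. Tiles of 400 coordinate units were ranked within each section by 9 central genes minus 6 portal genes, always without the gene shown, and cut into 10 equal parts from portal to central. In the sixth part Cyp2e1 averaged 1294 and 661 transcripts per tile at 72 h, against 143 and 174 at 48 h. In the most central part it averaged 3690 and 3194 at 72 h, against 1717 and 1365 at 48 h. The middle 4 parts held 27.5% and 21.3% of all Cyp2e1 transcripts at 72 h, against 14.0% and 18.7% at 48 h. Its place on the axis was not called as different. The correlation of its share with the central score was 0.93 and 0.96 at 72 h, against 0.95 and 0.97 at 48 h, a difference of -0.16 ± 0.13 on the Fisher scale (adjusted p 0.399 in limma). Its log2 ratio of central to portal share was 7.64 and 7.54 at 72 h, against 9.71 and 7.18 at 48 h, and these overlapped (-0.86 ± 0.92, adjusted p 0.507 in limma). Tiles at 72 h held more transcripts, a median of 6840 and 6213 per tile, against 4524 and 4623 at 48 h.

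Gstm3 averaged 168 and 142 transcripts per tile in the central 3 parts at 72 h, against 377 and 388 at 48 h. In the portal 3 parts it averaged 109 and 91.0 per tile at 72 h, against 48.9 and 94.7 at 48 h. The central level was thus 1.55 and 1.56 times the portal level at 72 h, against 7.71 and 4.09 times at 48 h. Gstm2 had central levels 5.19 and 6.17 times portal ones at 72 h, against 8.20 and 5.73 times at 48 h, and its groups overlapped by this measure. The correlation of Gstm2 with the central score was lower at 72 h, 0.75 and 0.85, against 0.91 and 0.92 at 48 h (-0.46 ± 0.13, adjusted p 0.0159 in limma). Its highest part per tile was part 10 in both 72 h sections and part 9 in both 48 h sections. The central 3 parts held 57.9% and 62.5% of its transcripts at 72 h, against 58.5% and 56.2% at 48 h. The portal 3 parts held 11.2% and 10.1% at 72 h, against 7.16% and 9.84% at 48 h. Without Cyp2e1 in the score and totals the difference was -0.51 and no longer called (adjusted p 0.076 in limma). With transcripts per tile it was -0.39 and not called (0.0571). Cyp8b1 peaked in different places in the sections of a time. Its highest part per tile was the first and the seventh at 72 h, and the first and the seventh at 48 h. Glul, the glutamine synthetase gene of the hepatocytes next to the central vein, held 88.5% and 88.9% of its transcripts in the central 3 parts at 72 h, against 88.8% and 95.8% at 48 h.

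**Figure D3:**
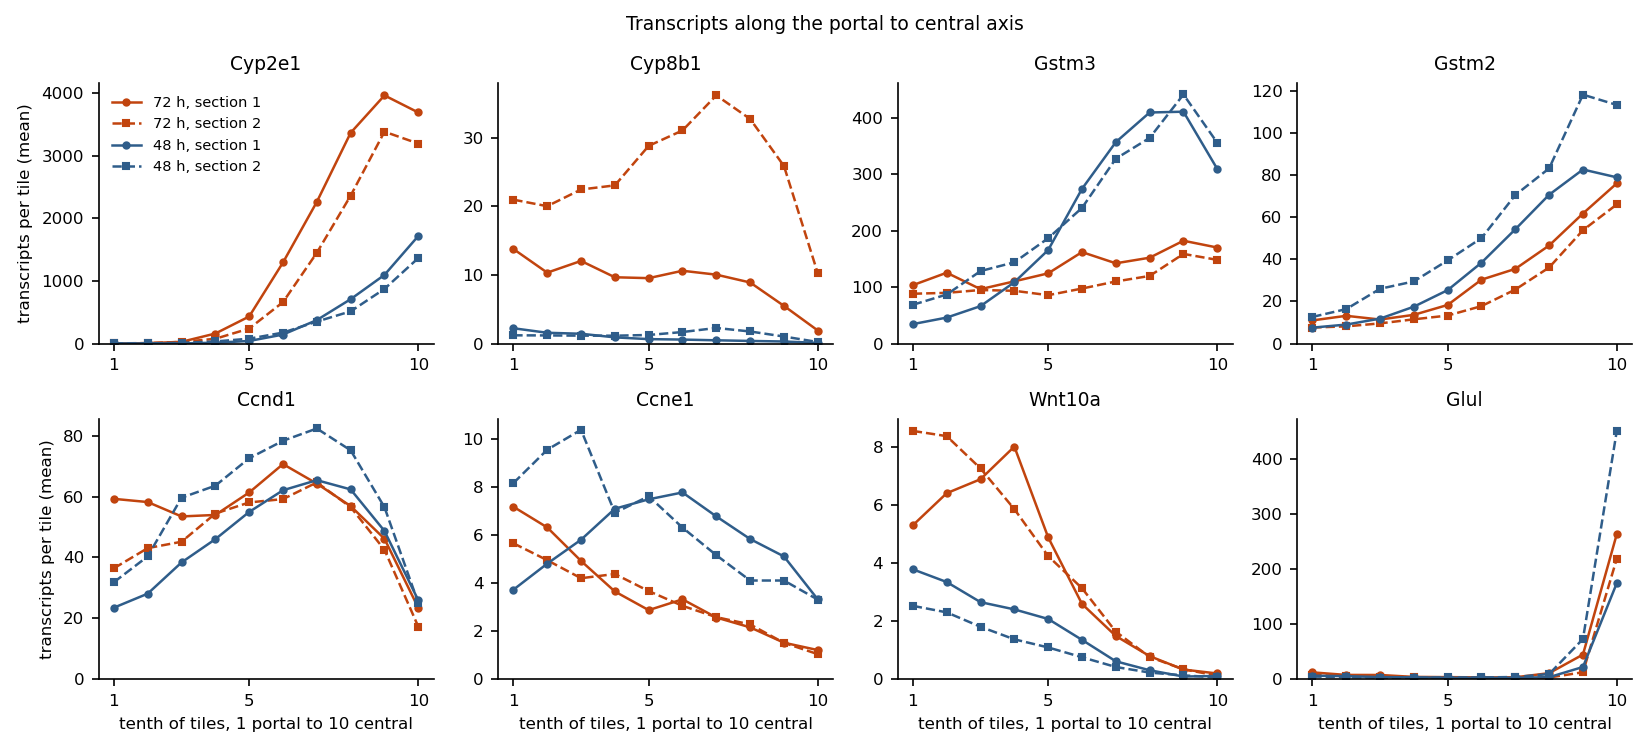
Mean transcripts per tile against the part of the tiles from portal (1) to central (10) for 8 genes, with 72 h in red and 48 h in blue, and section 1 solid and section 2 dashed. Cyp2e1 is higher at 72 h in the middle and central parts, Gstm3 runs from 104 and 88.3 per tile in the most portal part to 170 and 148 in the last at 72 h, against 34.4 and 68.7 to 310 and 356 at 48 h, and Ccnd1 is highest in the middle parts at both times.

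Of the 4 cell cycle genes 0 passed in edgeR, where 7.07% of all 99 genes were higher and 2.02% lower. Ccnd1, cyclin D1, stood at 8908 and 7434 CPM at 72 h, against 8630 and 9525 CPM at 48 h, with a log2 fold change of -0.15 ± 0.26 (adjusted p 0.877 in edgeR). Its groups overlapped. Ccne1, cyclin E1, stood at 661 and 612 CPM at 72 h, against 1242 and 1242 CPM at 48 h. These groups lay apart, and the log2 fold change was -0.96 ± 0.58 (adjusted p 0.394 in edgeR). With only the 48 h and 72 h sections in the fit it was -0.94 with an adjusted p of 0.0459 in edgeR, and without section 1 or section 2 of 0 h the adjusted p was 0.0162 and 0.0188. With the slide as a block it was -0.23 (0.817), and on slide 1 alone -0.95 (0.549). Ccne1 was found in 10.7% and 10.5% of thinned cells at 72 h, against 20.8% and 22.0% at 48 h.

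The other cyclins were scarce. Ccnb1, a cyclin of mitosis, had 0 and 5 counts at 72 h, against 6 and 22 counts at 48 h, with a log2 fold change of -2.39 ± 1.02 (adjusted p 0.187 in edgeR). Ccna1, a cyclin A best known from the germ line, had 9 and 20 counts at 72 h, against 7 and 31 at 48 h. Along the lobule Ccnd1 was highest per tile in the sixth and seventh parts at 72 h and in the seventh part of both sections at 48 h. The portal 3 parts held 31.2% and 26.1% of Ccnd1 transcripts at 72 h, against 19.7% and 22.5% at 48 h. For Ccne1 they held 51.6% and 44.5% at 72 h, against 24.8% and 42.9% at 48 h.

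Of 20 pericentral hepatocyte genes 1 rose, Cyp2e1, and 2 fell, Gstm3 and Gstm2, against 7.07% and 2.02% of all 99 genes. The other 17 did not pass, and the median log2 fold change was -0.43 against -0.03 over all genes. In 9 of the 20 both 72 h sections lay below both 48 h sections, against 26.3% of all genes, and in 3 both lay above, against 25.3%. Oat, ornithine aminotransferase, stood at 5654 and 3298 CPM at 72 h, against 6714 and 11525 CPM at 48 h, a log2 fold change of -1.03 ± 0.41 (adjusted p 0.187 in edgeR). Glul stood at 5972 and 4420 CPM at 72 h, against 4662 and 10111 CPM at 48 h, and its groups overlapped. Its log2 fold change was -0.51 ± 0.35. The urea cycle and amino acid list, which shares Oat and Glul, had 0 of 9 called, and Hpd, an enzyme of tyrosine breakdown, stood at 77072 and 91084 CPM at 72 h, against 57784 and 55784 CPM at 48 h (0.57 ± 0.24, adjusted p 0.187 in edgeR).

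Of 15 periportal hepatocyte genes 0 passed, with a median of 0.08, and of 3 gluconeogenesis genes 0 passed. Over all 99 genes 7.07% were higher and 2.02% lower. Pck1, which commits carbon to glucose, stood at 141441 and 159110 CPM at 72 h, against 216408 and 106774 CPM at 48 h. G6pc, which releases glucose from its phosphate, stood at 8515 and 13178 CPM at 72 h, against 13954 and 4996 CPM at 48 h. In both genes the 48 h sections lay on either side of the 72 h sections, so that the spread at 48 h exceeded the difference between the times. Fbp1, a further enzyme of the pathway, had a log2 fold change of 0.15 ± 0.25.

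Igf1, the growth factor that the liver secretes into blood, stood at 13456 and 10438 CPM at 72 h, against 19325 and 23307 CPM at 48 h. Both 72 h sections were below both 48 h sections, at -0.84 ± 0.27 in log2, and the gene missed the threshold (adjusted p 0.0545 in edgeR). It was called lower in 9 of 29 alternatives, among them DESeq2 at -0.85 and total-count scaling at -1.10. It was not called relative to cell number (-0.64, adjusted p 0.403 in edgeR), with the slide as a block (-0.63, 0.196) or on slide 1 alone (-0.70, 0.411). Of the 3 genes of the IGF axis 0 passed, where 7.07% of all 99 genes were higher and 2.02% lower, so 0 calls in a list this short say little. Igfals stood at -0.76 ± 0.56 and Igfbp2, which binds the factor, at 0.37 ± 0.27. Uqcrh, a subunit of respiratory complex III, stood at 855 and 720 CPM at 72 h, against 1524 and 1499 CPM at 48 h (-0.94 ± 0.32, adjusted p 0.0729 in edgeR), and was called in 10 of 29 alternatives, DESeq2 among them at -0.96. The other mitochondrial genes of its list of 3, Atp5a1 at 0.40 ± 0.26 and Cpt2 at 0.48 ± 0.26, did not pass.

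Of 8 lipid and lipoprotein genes 0 passed, against 7.07% higher and 2.02% lower over all 99 genes. In 4 of them both 72 h sections lay above both 48 h sections, against 25.3% of all 99 genes, and the median was 0.34, against -0.03. Pon1, a lipoprotein-bound esterase, stood at 17381 and 13658 CPM at 72 h, against 10890 and 11538 CPM at 48 h (0.47 ± 0.25, adjusted p 0.332 in edgeR). Mogat1, a monoacylglycerol acyltransferase outside that list, rose on few transcripts. It had 81 and 228 counts at 72 h, against 36 and 69 at 48 h, or 35.1 and 45.5 CPM at 72 h, against 10.5 and 16.0 CPM at 48 h. The log2 fold change was 1.60 ± 0.46 (adjusted p 0.0289 in edgeR). Leaving out section 2 of 72 h gave 1.40 (adjusted p 0.192 in edgeR), which ended the call, as did leaving out section 1 of 48 h (1.59, 0.0848) or its section 2 (1.69, 0.0602). So did leaving out section 2 or section 3 of 14 d (0.0654 and 0.0503), and it ended with the slide as a block (1.37, 0.0929) and on slide 1 alone (1.36, 0.244). Of the heme synthesis genes, Alad stood at 0.22 ± 0.24 and Cpox at 0.31 ± 0.28. Of 3 complement and plasma protein genes 0 passed, against the same shares of all genes, with C8b at -0.33 ± 0.27 and C6 at -0.06 ± 0.29.

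Of 18 Wnt ligand genes 3 rose and 0 fell, against 7.07% and 2.02% of all 99 genes, and the median log2 fold change was 0.02, against -0.03. Wnt10a, the most abundant of the 3, stood at 628 and 738 CPM at 72 h, against 366 and 195 CPM at 48 h. The groups did not overlap, and the log2 fold change was 1.28 ± 0.39 (adjusted p 0.0451 in edgeR). This call was the least firm of the 7, being kept in 9 of 29 alternatives, and without section 2 of 48 h the value was 0.64 (adjusted p 0.428 in edgeR). It also ended without section 1 or section 2 of 72 h (0.179 and 0.247), without either 24 h section, without any single 14 d section and without the 6 mo section (0.0925). With the slide as a block it was 1.03 (adjusted p 0.108 in edgeR), and on slide 1 alone 1.10 (0.247). Wnt10a was a portal-side transcript, with 50.4% and 60.1% of its transcripts in the portal 3 parts at 72 h, against 58.5% and 62.2% at 48 h.

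Wnt16 and Wnt10b were scarce. Wnt16 had 53 and 66 counts at 72 h, against 7 and 20 at 48 h, and rose by 2.38 ± 0.57 in log2 (adjusted p 0.01 in edgeR). Wnt10b had 14 and 81 counts at 72 h, against 7 and 3 at 48 h, and rose by 3.10 ± 0.70 (adjusted p 0.00668 in edgeR). No 72 h cell held more than 3 Wnt16 transcripts or more than 2 of Wnt10b. Wnt10b rested on section 2 of 72 h and section 2 of 48 h, without which it stood at 2.18 and 2.25 (adjusted p 0.192 and 0.151 in edgeR), and Wnt16 was at 2.16 without section 1 of 48 h (0.0519) and at 2.35 without any 14 d section (0.0524). On slide 1 alone Wnt16 was at 2.71 (adjusted p 0.158 in edgeR) and Wnt10b at 2.12 (0.632). The ligands known from central vein endothelium did not pass. Wnt2 stood at 450 and 303 CPM at 72 h, against 344 and 470 CPM at 48 h (-0.11 ± 0.37), and Wnt9b at 247 and 191 CPM at 72 h, against 222 and 380 CPM at 48 h (-0.46 ± 0.40). Wnt11 had a log2 fold change of 0.95 ± 0.53.

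Of 12 genes for Wnt receptors and co-receptors 1 rose, a share near the 7.07% of all genes. Fzd6, a frizzled receptor known from planar polarity, had 94 and 431 counts at 72 h, against 62 and 73 at 48 h, or 40.7 and 85.9 CPM at 72 h, against 18.1 and 17.0 CPM at 48 h. The log2 fold change was 1.86 ± 0.47 (adjusted p 0.0138 in edgeR). Leaving out section 2 of 72 h ended the call (1.22, adjusted p 0.247), as did leaving out section 1 or section 2 of 48 h (0.059 and 0.151), and it did not hold with the slide as a block (1.43, 0.0812), on slide 1 alone (1.17, 0.324) and without any 14 d section (0.0739). Lrp5, a co-receptor, stood at 7745 and 7041 CPM at 72 h, against 11210 and 10775 CPM at 48 h (-0.57 ± 0.29, adjusted p 0.278 in edgeR), and Fzd7 at -0.47 ± 0.40. The Mogat1, Wnt16, Wnt10b and Fzd6 rises were thus read from transcripts found in few cells, between 0.292% for Wnt10b and 1.94% for Fzd6 in section 1 of 72 h. Counts per cell differed between the 72 h sections. Fzd6 averaged 0.0196 in section 1 and 0.0380 in section 2, Wnt10b 0.00292 and 0.00714, Mogat1 0.0169 and 0.0201, and Wnt16 0.0111 and 0.00582.

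Of 7 R-spondin, Lgr and Wnt-dampening genes 0 passed, with a median of -0.59, and of 8 Wnt target genes 0 passed, with a median of -0.55. Of all 99 genes 7.07% were higher and 2.02% lower, with a median of -0.03, so 0 calls in lists this short say little. Lgr5, Rnf43 and Znrf3 are in both lists, so the 2 medians are not independent. Lgr4, a receptor for R-spondins, stood at 354 and 325 CPM at 72 h, against 624 and 853 CPM at 48 h (-1.12 ± 0.40, adjusted p 0.0828 in edgeR). Its groups lay apart, and it was called lower in 4 of 29 alternatives, DESeq2 among them. Znrf3, a ligase that removes frizzled receptors, stood at 1451 and 1157 CPM at 72 h, against 2308 and 1915 CPM at 48 h (-0.70 ± 0.31). Axin2, a general Wnt target, stood at 341 and 227 CPM at 72 h, against 393 and 611 CPM at 48 h (-0.82 ± 0.39, adjusted p 0.264 in edgeR). Lgr5 (-0.59 ± 0.42) and Rspo3 (-0.23 ± 0.46), the R-spondin of central vein endothelium, did not pass.

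**Figure D4:**
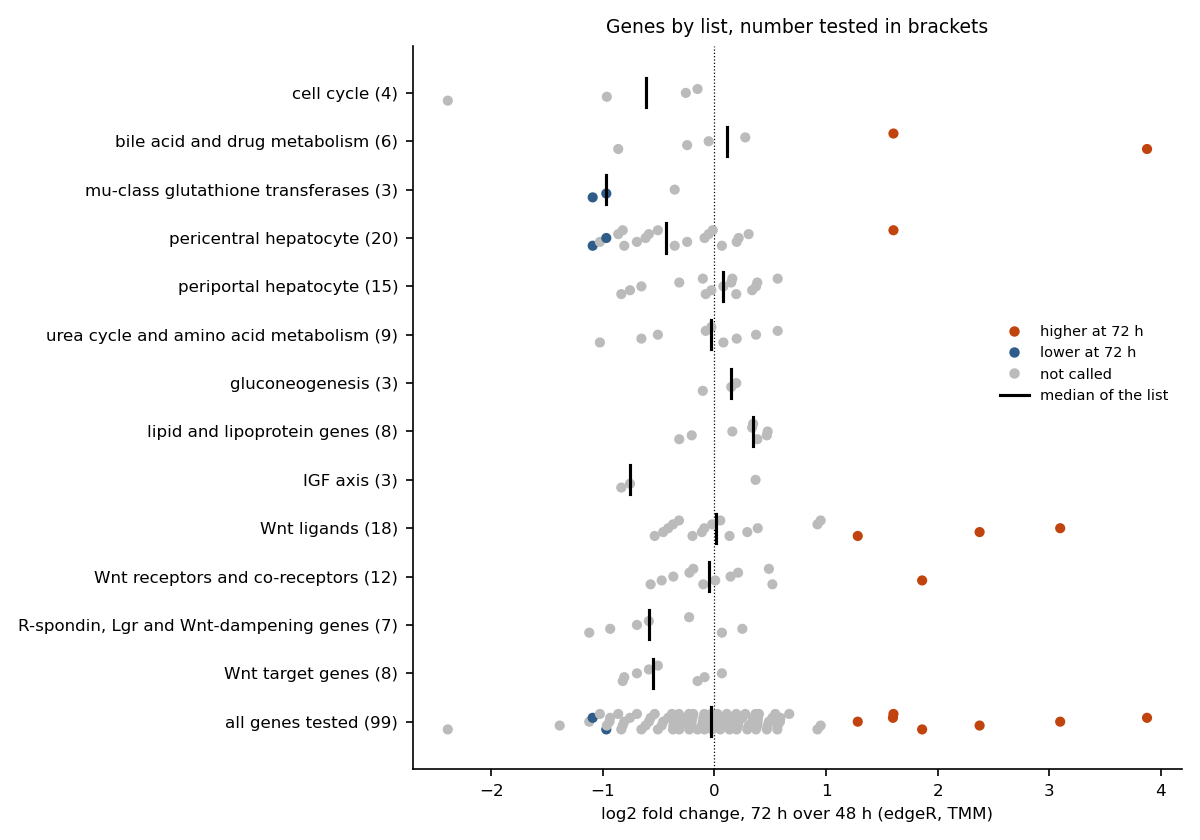
Log2 fold change of 72 h over 48 h for each gene of 13 lists and for all 99 genes tested, each point a gene (red higher, blue lower, grey not called) and each black line the median of the list. The R-spondin, Lgr and Wnt-dampening list has its median at -0.59 and the Wnt target list at -0.55, with 0 genes called in either. Lgr5, Rnf43 and Znrf3 are in both of these lists.

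Markers of other liver cells were present in both groups and none passed in the main fit. The outcome for Adgre1 and Sox9 (higher) and for the tight junction gene Cldn2 (lower) depended on whether section 1 of 48 h was in the fit. The 4 endothelial genes of 8 listed that were in the panel summed to 5428 and 4062 CPM at 72 h, against 3731 and 4184 CPM at 48 h. Pecam1, present on all endothelium, stood at 4444 and 3449 CPM at 72 h, against 3005 and 3020 CPM at 48 h (0.39 ± 0.27, adjusted p 0.46 in edgeR). The macrophage gene Adgre1 stood at 1110 and 1039 CPM at 72 h, against 859 and 492 CPM at 48 h (0.67 ± 0.36), and the leukocyte gene Ptprc at 734 and 607 CPM at 72 h, against 501 and 392 CPM at 48 h (0.59 ± 0.35). Lyz2, of myeloid cells, overlapped between the groups (0.08 ± 0.28), as did Lrat, the stellate cell gene that stores retinol esters (0.56 ± 0.32). Sox9, a cholangiocyte and progenitor factor, stood at 643 and 606 CPM at 72 h, against 534 and 322 CPM at 48 h (0.54 ± 0.36). The tight junction genes Cldn7 (0.59 ± 0.48) and Cldn2 (-0.62 ± 0.35) did not pass in the main fit. Summed levels were 4989 and 3646 CPM at 72 h, against 4361 and 3109 CPM at 48 h, for 2 of 4 listed macrophage genes, and 3790 and 3661 CPM at 72 h, against 4334 and 3705 CPM at 48 h, for 3 of 6 cholangiocyte and progenitor genes. Most of the latter sum was Yap1, at 3065 and 2997 CPM at 72 h, against 3753 and 3337 CPM at 48 h (-0.23 ± 0.26). The other members, Sox9 and Cldn7, went the other way, so that sum does not describe them. None of the markers in the panel was at 0, and the part of these cells in the changes above was not tested.

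Tiles were also cut into 3 equal zones along the axis, each tested alone, and Cyp8b1 was higher in the portal zone, where 1 of 94 genes was called higher (1.06%) and 0 lower (0%). There it stood at 1699 and 3577 CPM at 72 h, against 366 and 271 CPM at 48 h (3.05 ± 0.37, adjusted p 0.000597 in edgeR). In the middle zone 3 of 97 genes were higher (3.09%) and 0 lower, namely Cyp8b1 (4.08 ± 0.57), Cyp2e1 (2.36 ± 0.41) and Wnt16 (2.82 ± 0.67). Cyp2e1 stood there at 169010 and 96145 CPM at 72 h, against 25914 and 25693 CPM at 48 h. In the central zone 0 of 96 were called in either direction by edgeR (0%), with 7 higher and 9 lower at an unadjusted p under 0.05. Cyp2e1 stood there at 537163 and 433545 CPM at 72 h, against 216523 and 109023 CPM at 48 h (1.58 ± 0.40, adjusted p 0.0707 in edgeR), and Gstm3 at 25076 and 21231 CPM at 72 h, against 74493 and 48705 CPM at 48 h (-1.41 ± 0.31, 0.059). Cyp8b1 was at 4.49 ± 1.01 in the central zone. Without section 2 of 48 h 0 genes were called higher in the portal and in the middle zone, and without section 1 of 48 h 1 was in the middle zone.

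The place of 62 genes along the axis was read as the Spearman correlation of their share of a tile's transcripts with the central-minus-portal score, compared between times in limma. By that measure 18 genes (29.0%) correlated less with the score at 72 h, called more portal here, and 0 (0%) correlated more. A lower correlation is not by itself a move of the peak, which for Gstm2 stayed central. Gstm3 correlated with the score at 0.31 and 0.30 at 72 h, against 0.84 and 0.84 at 48 h, a difference of -0.92 ± 0.13 on the Fisher scale (adjusted p 0.00011 in limma). Fads1, a fatty acid desaturase gene, correlated at -0.48 and -0.10 at 72 h, against 0.70 and 0.40 at 48 h (-0.96 ± 0.16). Alad, the second enzyme of heme synthesis, correlated at 0.21 and 0.34 at 72 h, against 0.86 and 0.79 at 48 h (-0.90 ± 0.15). Lrp5 (-0.76 ± 0.12) and Znrf3 (-0.75 ± 0.14) were the next in size, and Ccnd1 was among the 18 at -0.45 ± 0.14. The count was 6 without section 1 of 72 h, 9 and 8 without section 1 or section 2 of 48 h, and 28 without section 1 or section 2 of 0 h.

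The share of a gene within a tile depends, by the way it is built, on how much of the transcripts Cyp2e1 takes up. Without Cyp2e1 in the totals and the score, 1 of the 18 calls was left, Gstm3 at -0.66 (adjusted p 0.038 in limma). That setting changed the ranking of tiles and the totals together, and the cause of the lost calls was not tested. With transcripts per tile in place of shares 5 were left, Gstm3 (-0.79), Znrf3 (-0.53), Alad (-0.49), Lrp5 (-0.46) and Fads1 (-0.43). Cpt2 changed sign without Cyp2e1, standing at 0.23 in place of a called -0.48. Toward the central side, the 5 largest differences were Fbp1 (0.28), Gls2 (0.09), Pck1 (0.09), Cyp8b1 (0.05) and Cyp1a2 (0.02), and none passed.

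**Figure D5:**
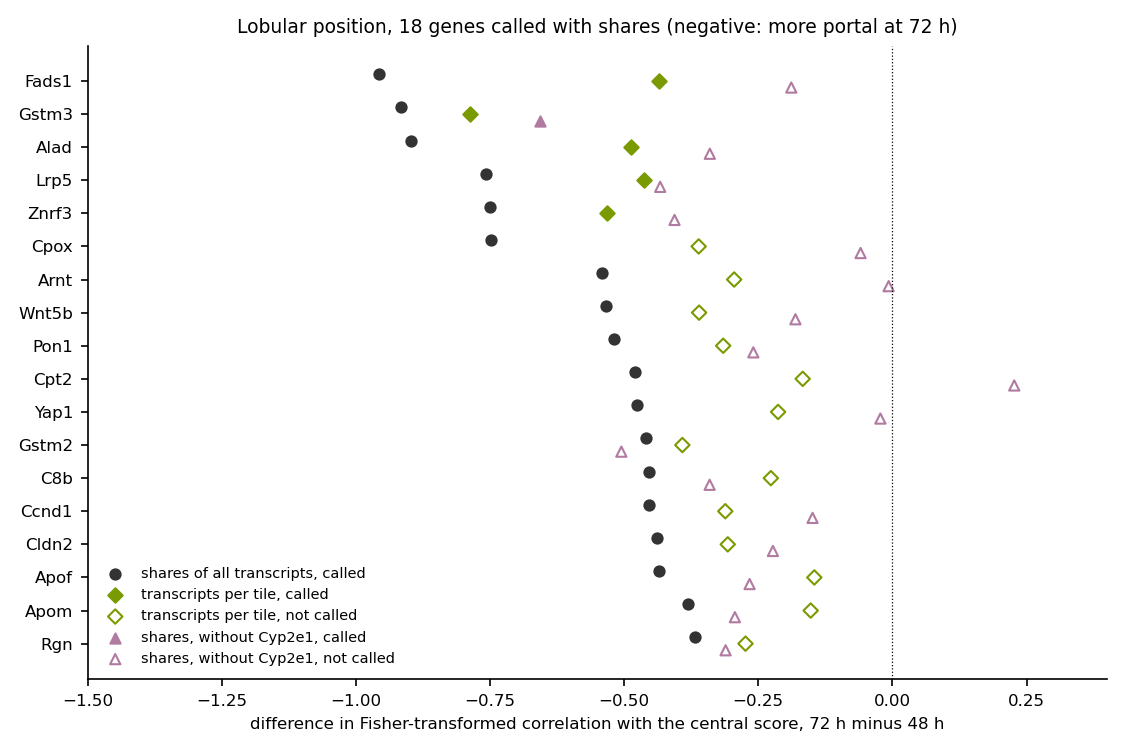
Difference of 72 h minus 48 h in the Fisher-transformed correlation with the central score for the 18 genes called with shares, where filled symbols passed limma's test at 0.05 and open ones did not. All 18 circles (shares) are left of 0, 5 diamonds (transcripts per tile) are filled, and 1 triangle (shares without Cyp2e1) is filled, that of Gstm3.

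The log2 ratio of the central to the portal zone tests whether a change differs between the ends of the axis, and 0 of 62 genes passed (0%), with 0 higher and 23 lower at an unadjusted p under 0.05 in limma. Gstm3 had the largest shift. Its log2 ratio was 0.51 and 0.54 at 72 h, against 3.09 and 1.98 at 48 h, a difference of -2.01 ± 0.53 (adjusted p 0.0732 in limma). In size it was followed by Sox9 (-1.53 ± 0.81), Hsd17b13 (-1.39 ± 0.61), Lgr4 (-1.24 ± 0.23) and Glul (-1.21 ± 0.62). Of the 62 genes Lgr4 had the smallest adjusted p (0.0567 in limma), which did not pass. The 5 largest shifts toward the central zone were Cyp8b1 (0.65 ± 0.87), Cyp1a2 (0.64 ± 0.55), Wnt2 (0.21 ± 0.28), Oat (0.15 ± 0.30) and Lyz2 (0.03 ± 0.32). The sign of these shifts depended on the measure. With shares 57 of 62 differences were negative, and with transcripts per tile 51 were. Without Cyp2e1 in the score and totals, 29 of 62 were negative, and 0 genes passed. That setting changed the ranking of tiles and the totals together, and the cause of the change was not tested. Without Cyp2e1, Gstm3 was at -1.38, Sox9 at -0.94, Hsd17b13 at -0.79, Lgr4 at -0.63 and Glul at -0.55. Toward the central zone Cyp8b1 was then at 1.31, Cyp1a2 at 1.16, Oat at 0.81, Wnt2 at 0.72 and Lyz2 at 0.63, and Wnt10a was at 0.73 in place of -0.06. With the slide as a block 39 genes passed toward the portal side, and without section 1 or section 2 of 0 h 28 did.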

How the data were processed

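Transcripts of 100 genes were counted in 13 sections. The authors deposited whole-number counts per gene and cell and, for the 12 sections whose positions were used, transcript coordinates, per the file headers. The sources used here give neither the decoding and cell outlines nor the length of a coordinate unit.

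Counts were summed over the cells of a section, with the pair from 24 h joined, for 12 libraries. Of 100 genes, 99 reached 10 counts in 2 libraries and were fitted over all 7 times in edgeR 4.0.16 (R 4.3.3, TMM, robust quasi-likelihood test on 5 residual degrees of freedom), with p-values adjusted by Benjamini-Hochberg and called at 0.05. The standard error is the log2 fold change over the square root of F. CPM is the count over the scaled total, times 1e6. TMM takes most genes as stable, and a selected panel may break this. Genes that a table leaves out counted as 0.

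Tiles of 400 coordinate units needed at least 50 transcripts. Each got a score, 9 central minus 6 portal genes, from z-scores of log2(1000 x share + 1), with the tested gene left out. Position was tested for 62 genes, each reaching 500 transcripts per section, in limma 3.58.1 (robust, on 4 degrees of freedom), and 3 zones of tiles in edgeR. Both fits were tested on simulated data.

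The comparison, gene lists and named genes were chosen with earlier results of these data known. Named genes were the 12 largest rises and falls among called genes without overlap, the 2 next members per list by p, a set of cyclins, glutathione transferases, metabolic and Wnt genes, and the 5 largest shifts in position each way. Igfals, Cyp27a1 and Atp5a1 were added after their values were seen. Alternatives were total counts, DESeq2 1.42.0, cell number, scaling without Cyp2e1, other filters, all listed transcripts, 24 h as 2 libraries, a block for section number or for slide, slide 1 alone, only both times, a fit that was not robust, other tiles and leaving out each section. Alternatives chosen after seeing the data were the 14 d sections as 1 library or left out, the section numbers crossed, and transcripts per tile.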

Additional observations from a re-analysis of the deposited data

How the results depend on the processing

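Of the 7 higher and 2 lower genes of the section counts, each kept its direction in all 29 alternatives (28 for Wnt10b, which a filter of 100 counts removed), and Cyp8b1 kept its call in all of them. The alternatives refit the same sections, whose groups did not overlap in these genes, so a kept direction is not further support. The counts below cover all genes called, not only these. Without section 1 of 48 h the lower gene was Cldn2, with Gstm3 at -0.81 and Gstm2 at -0.88 not called. The higher count was 4 with the slide as a block, 1 on slide 1 alone, 4 with the 14 d sections as 1 library and 3 without any 14 d section, both 14 d settings being chosen after seeing the data. The lower count was 5 with total-count scaling, 6 in DESeq2, 0 relative to cell number, 4 with no filter or with at least 100 counts, 5 with the 24 h sections as 2 libraries, 0 on slide 1 alone, 9 with only 48 h and 72 h, 0 with the 14 d sections as 1 library and 1 without any 14 d section. Leaving out single sections gave 3 to 7 higher and 0 to 9 lower genes, the higher count being 3 without section 2 of 48 h or of 72 h, and the lower one 9 and 8 without section 1 or 2 of 0 h, 4 without the 6 mo section, 1 without section 1 of 48 h and 0 without section 1 or 2 of 72 h. For lobular position 1 gene lay more portal without Cyp2e1 and 5 with transcripts per tile, Cpt2 reversing to 0.23 in the first; leaving out single sections gave 6 to 28 more portal (6 without section 1 of 72 h, 8 and 9 without section 2 or 1 of 48 h, 28 without section 1 or 2 of 0 h) and 0 to 0 more central. The central to portal ratio gave 39 more portal with the slide as a block, and 0 to 28 more portal and 0 to 0 more central on leaving out sections (28 without section 1 or 2 of 0 h). Tiles of 800 gave 7 higher and 6 lower in the portal zone and 5 and 2 in the middle zone. In the central zone total-count scaling gave 3 and 12, and the slide as a block 1 and 2. Leaving out sections gave 0 to 2 higher and 0 to 0 lower genes in the portal zone, 0 to 3 and 0 to 0 in the middle zone, and 0 to 2 and 0 to 1 in the central zone. The cause of these shifts was not tested.

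Sections of the same number were not shown to be pairs, since the correlation of their deviations was -0.22. With the section number as a replicate block 5 genes were higher over the section, Mogat1 and Wnt10a having lost their calls, and 2 were lower, Gstm3 and Oat in place of Gstm3 and Gstm2, while 2 were lower in the middle zone, and 2 were higher and 1 lower in the central zone. With the numbers crossed 7 were higher and 2 lower, again Gstm3 and Oat. The block gave 17 genes more portal in position.

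With 2 sections a time the spread was mostly measured at other times, and rises of genes with under 100 counts in a section rest on single transcripts in few cells.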
